A study of Mus musculus with 4 samples.

Results

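The miR-200 family consists of 5 miRNAs, listed on the panel as mmu-miR-200a, mmu-miR-200b, mmu-miR-429, mmu-miR-200c and mmu-miR-141 and written here without the species prefix. They were taken by name from the 566 mouse miRNA probes of a nanoString nCounter miRNA panel. In this assay each miRNA is tagged, hybridised to a colour-coded barcode and counted one barcode at a time. The panel carried 1 probe per member. Epidermal cells were scraped from the back skin of adult mice after trypsin treatment. Oncogenic epidermal cells (2 samples, whose titles call them tumours) came from mice carrying R26stoprtTA/+, Col-tetO-YAPS127A/+ and K14-Cre. Normal epidermal cells (2 samples) came from mice with the same R26stoprtTA/+ and Col-tetO-YAPS127A/+ alleles and no Cre. Both groups drank doxycycline at 1 mg/ml for 8 days. K14-Cre acts in basal keratinocytes and their progeny, so induction of the S127A mutant of YAP, a transcriptional coactivator that the Hippo pathway normally restrains, was limited to that lineage, while the scraped cells could hold other types. The protocol gives 6 control animals without saying how animals map to samples. The 2 samples of a group are not tied to separate animals, so the spread behind each p-value may be technical.

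miRNAs of this family are abundant in epithelia. They repress the transcription factors Zeb1 and Zeb2, which in turn repress the genes of the family, and this mutual repression helps to hold cells in the epithelial or the mesenchymal state. A miRNA recognises its targets mainly through its seed, bases 2 to 8 counted from the 5′ end. The family is made from 2 primary transcripts, and each transcript yields members of both seed groups, so the members can be grouped by transcript and, differently, by seed.

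The mature sequences are shown with the seed in capitals, because they define the seed groups and how closely the probes' targets resemble each other. Sequences and positions are those of RefSeq on GRCm38.p6, where all 5 members were found as the 3p arm. The table's names carry no arm, and the 3p arm is the one these names stood for before arms were numbered.
miR-200b: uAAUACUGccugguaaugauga
miR-429: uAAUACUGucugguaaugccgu
miR-200c: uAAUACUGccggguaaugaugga
miR-200a: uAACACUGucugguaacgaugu
miR-141: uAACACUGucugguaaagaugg

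miR-200b, miR-429 and miR-200c share the seed AAUACUG, and miR-200a and miR-141 share the seed AACACUG. The seeds differ at 1 base, which from miR-200a to miR-200b is C4U, with positions counted from 1 at the 5′ end. Among the 1679 named mature mouse miRNAs of the RefSeq table, 3 carry the first seed and 2 the second, and all of them are members of the family. Closest in sequence are miR-200b and miR-200c, which differ at 2 of 22 positions (U11G and A22G), and miR-200a and miR-141, which also differ at 2 of 22 (C17A and U22G). Both of these close pairs join members of different transcripts. The other 8 pairs differ at 4 or 5 positions. Signal shared between probes of such similar targets was not tested.

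miR-200b (chr4:156055685-156055706, minus strand), miR-200a (chr4:156054911-156054932, minus strand) and miR-429 (chr4:156053916-156053937, minus strand) lie in this order along 1 transcript. Their hairpins span 1846 bases, a stretch that overlaps the annotated gene Gm13648. miR-200c (chr6:124718324-124718346, minus strand) and miR-141 (chr6:124717917-124717938, minus strand) follow each other on the other transcript, within 477 bases between the genes Phb2 and Ptpn6. The hairpins of miR-200b and miR-429 are shown, with the mature 3p arm in capitals, because these members share both transcript and seed and yet differed in how far they stood from the normal level.
miR-200b hairpin (chr4:156055681-156055750, minus strand): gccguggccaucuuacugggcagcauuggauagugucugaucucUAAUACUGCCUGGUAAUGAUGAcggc
miR-429 hairpin (chr4:156053905-156053987, minus strand): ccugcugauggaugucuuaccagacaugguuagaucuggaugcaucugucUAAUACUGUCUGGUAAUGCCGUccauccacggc

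The recovered miRNA counts ranged from 53709 to 230284 per sample, and oncogenic replicate 2 was the shallowest, with a scaling factor of 1.76 against 0.861 to 0.878 in the other samples. The preparation carried the keratinocyte miRNAs miR-205 and miR-203 in all 4 samples. miR-205 stood at 25839 and 23078 normalized counts in oncogenic cells, against 23262 and 40291 in normal cells. For miR-203 the values were 9969 and 8229 in oncogenic cells, against 10250 and 10451 in normal cells. The summed markers of most other cell types were lower in both oncogenic samples. The summed level of 3 red blood cell markers was 46.3 and 47.6 in oncogenic cells, against 942 and 814 in normal cells. That of 2 endothelial markers was 11.4 and 17.6 against 223 and 400, and that of 2 melanocyte markers was 28.0 and 17.6 against 345 and 171. In these 3 lists miR-486, miR-126-5p and miR-211 were below 30 in all samples. The red blood cell sum thus rested mainly on miR-451 and miR-144, the endothelial sum on miR-126-3p and the melanocyte sum on miR-204. The 6 white blood cell markers summed to 334 and 440 in oncogenic cells, against 621 and 492 in normal cells, but not all of them were lower. miR-155 overlapped, at 208 and 268 against 229 and 159, and miR-142-5p, below 30 in all samples, stood at 18.3 and 28.2 against 10.5 and 15.5. The 6 markers of fibroblasts and smooth muscle summed to 161 and 82.8 against 221 and 218, with miR-214, miR-143 and miR-145 below 30 in all samples. Most of that sum was miR-152, which overlapped, at 122 and 51.1 in oncogenic cells against 116 and 139 in normal cells. Of 4 neuronal markers only miR-138 reached 30 in any sample, at 59.4 and 35.2 in oncogenic cells, against 27.2 and 11.2 in normal cells, and all 4 muscle markers were below 30 throughout. The part of cell composition in the results was not tested. In such bulk samples, fewer cells of a type and less of an miRNA per cell cannot be told apart.

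All 3 members made from the transcript on chromosome 4 had lower values in both oncogenic samples than in both normal samples, while on chromosome 6 miR-200c was nearly level on the deposited scale and miR-141 overlapped between the groups. miR-200a, which shares its seed with miR-141, stood at 746 and 338 normalized counts in oncogenic cells, against 1742 and 1916 in normal cells. miR-200b, which carries the other seed, stood at 1087 and 733 in oncogenic cells, against 2326 and 2251 in normal cells. miR-429, the last hairpin of that transcript, stood at 1402 and 893 in oncogenic cells, against 1974 and 1903 in normal cells. For each of these members the groups were separate, and oncogenic replicate 2 was the lowest sample. miR-200c had 729 and 801 normalized counts in oncogenic cells, against 719 and 710 in normal cells. Its groups were separate by a small margin in the other direction. miR-141 had 604 and 204 in oncogenic cells, against 797 and 483 in normal cells. Its highest oncogenic sample lay above its lowest normal sample. The lowest value of any member, 204, rested on 116 counts, with an exact Poisson interval (95%) of 169 to 245 normalized counts. Such intervals cover counting error only. No viral probe, which has no target in mouse skin, exceeded 27.6 normalized counts.

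**Figure D1:**
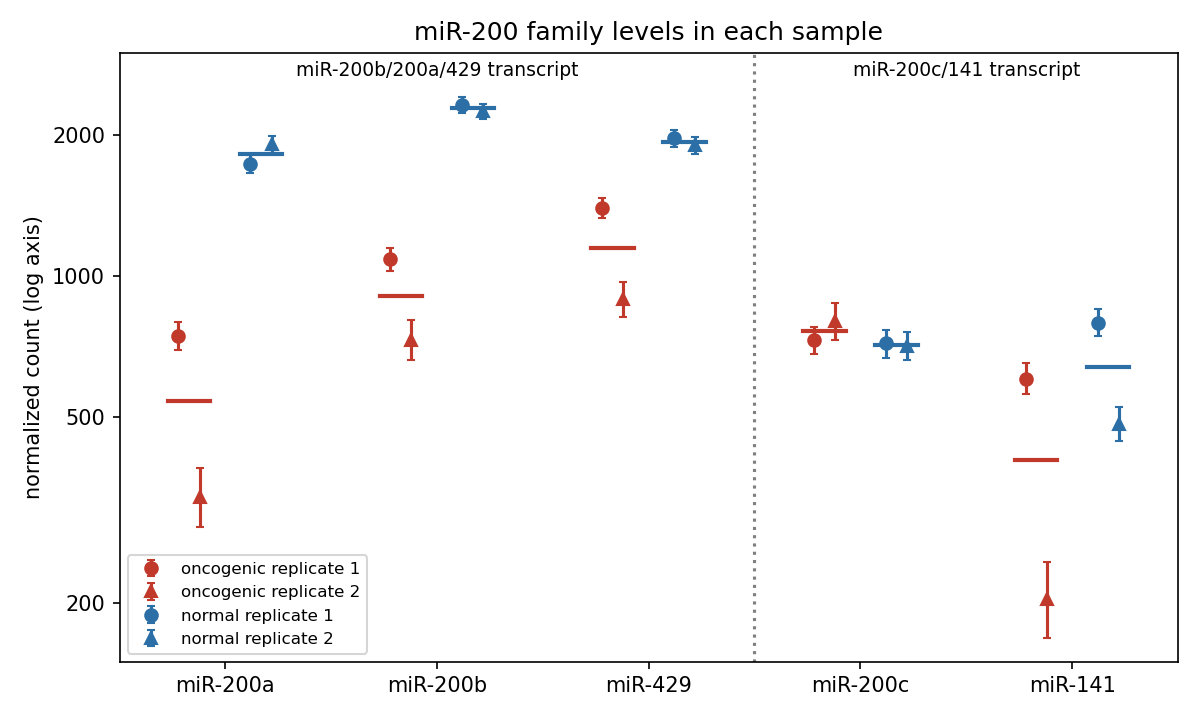
Normalized count (log axis) of each family member, with oncogenic samples in red on the left and normal samples in blue on the right of each pair. Points are single samples with exact 95% Poisson intervals for counting error, bars are group means, and the dotted line separates the 2 transcripts. The red points lie below the blue ones for miR-200a, miR-200b and miR-429, lie close to them for miR-200c, and overlap them for miR-141.

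No member passed limma's test with Benjamini-Hochberg adjustment over the 124 miRNAs that reached 30 normalized counts in at least 2 samples, a minimum that all 5 members exceeded in every sample. Differences are in log2(value + 1), where changes of low miRNAs come out too small. miR-200a averaged 542 ± 288 in oncogenic and 1829 ± 123 in normal cells (SD, n = 2 each), a log2 difference of -1.86 (SE 0.44, limma adjusted p = 0.114) or 0.275 of the normal level. miR-200b averaged 910 ± 250 in oncogenic and 2288 ± 53.4 in normal cells, a log2 difference of -1.36 (SE 0.29, limma adjusted p = 0.0998) or 0.390 of the normal level. miR-429 averaged 1147 ± 360 against 1939 ± 49.7, with a log2 difference of -0.79 (SE 0.31, limma adjusted p = 0.210). miR-141 averaged 404 ± 283 against 640 ± 222, with a log2 difference of -0.82 (SE 0.62, limma adjusted p = 0.555). miR-200c averaged 765 ± 50.9 against 714 ± 6.25, with a log2 difference of 0.10 (SE 0.22, limma adjusted p = 0.841). This value depended on the scaling: it was 0.63 with each sample centred on its median and 0.50 with the 100 most abundant miRNAs, and -0.31 with mRNA probes, -0.041 without Gapdh among them and -0.15 with positive control probes. At an unadjusted p under 0.05, 2 of 5 members were lower and 0 higher, where 21% of all tested miRNAs were lower and 3.23% higher. With adjustment the shares over all tested miRNAs were 4.03% lower and 0% higher. edgeR's quasi-likelihood test on recovered counts also called 0 members, with TMM or with the deposited factors, while DESeq2 called miR-200a lower (log2 difference -1.48, adjusted p = 0.0270).

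The groups were separate, with oncogenic cells lower, for 3 of 5 members, against 38.7% of all tested miRNAs, and with oncogenic cells higher for 1 of 5, against 12.9%. The median difference of the 5 members was -0.82, beside -0.19 over all 124. Ordered from the lowest difference, miR-200a was at place 10 of 124, miR-200b at 14, miR-141 at 37, miR-429 at 39 and miR-200c at 81. After subtraction of that overall median the differences were -1.67 for miR-200a, -1.17 for miR-200b, -0.63 for miR-141, -0.60 for miR-429 and 0.29 for miR-200c. Leaving out single samples changed whether miR-200a and miR-200b passed the threshold. Such a fit has 1 sample in an arm, takes the spread from the pair of the other group and the spread shared over all miRNAs, and assumes that the lone sample varies alike. The normal pair was close together and the oncogenic pair far apart for these members, so the p-values without an oncogenic sample rest on a smaller spread. Without oncogenic replicate 1 their limma adjusted p-values were 0.00780 and 0.0153, and those of miR-429 and miR-141 were 0.0391 and 0.0494. Without oncogenic replicate 2 they were 0.0295 for miR-200a and 0.0398 for miR-200b, while the log2 differences of miR-429 and miR-141 were -0.47 and -0.038. With normal replicate 1 left out both adjusted p-values were 0.540, and with normal replicate 2 left out both were 0.578. The number of miRNAs called over the whole panel moved in the same fits, to 26 and 10 without an oncogenic sample and to 3 and 1 without a normal sample, beside 5 with all samples.

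**Figure D2:**
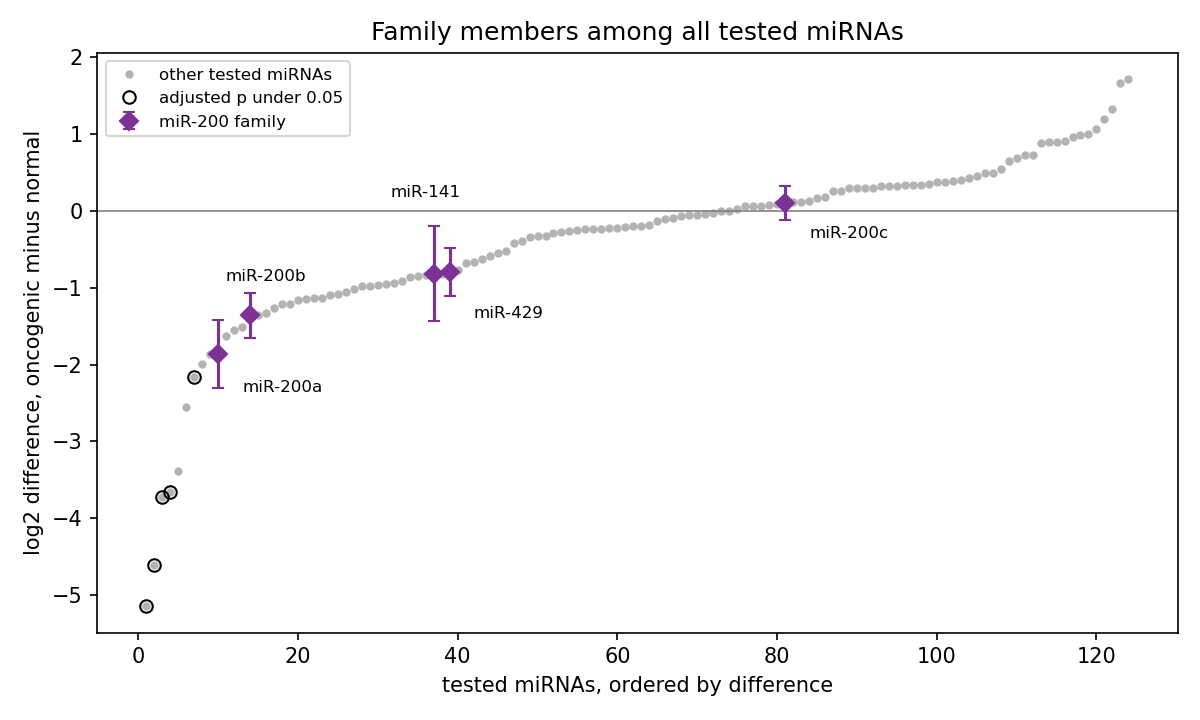
log2 difference, oncogenic minus normal, of the 124 tested miRNAs ordered from lowest to highest. Diamonds are the family members with their standard errors, open circles are the 5 miRNAs with an adjusted p under 0.05, and the members run from place 10 (miR-200a) to place 81 (miR-200c).

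A ratio of members within a sample is free of the factor that scales that sample. The probes may differ in efficiency, so such a ratio is read only between samples, not as a ratio of molecules. The composition of the family was different in the oncogenic samples. The 3 members from chromosome 4 made up 70.8% and 66.1% of the summed family level in oncogenic cells, against 79.9% and 83.6% in normal cells. miR-200c alone made up 16.0% and 27.0% in oncogenic cells, against 9.51% and 9.77% in normal cells. The summed level of all 5 members was 4568 and 2970 in oncogenic cells, against 7557 and 7263 in normal cells.

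**Figure D3:**
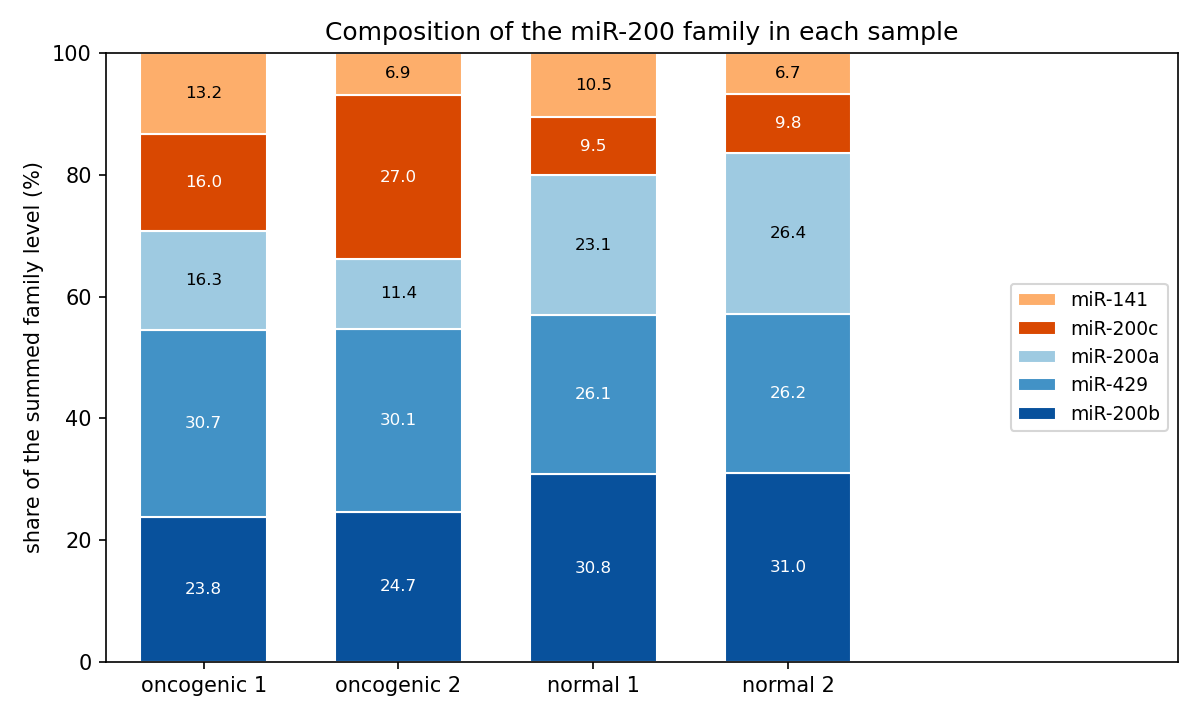
Share of each member in the summed family level of each sample (%), with members from the transcript on chromosome 4 in blue and those from chromosome 6 in orange. The orange part is larger in the oncogenic samples, and miR-200a, the palest blue, takes 16.3% and 11.4% there against 23.1% and 26.4% in the normal samples.

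By transcript, the mean log2 level of miR-200a, miR-200b and miR-429 exceeded that of miR-200c and miR-141 by 0.65 and 0.58 in oncogenic cells, against 1.40 and 1.78 in normal cells. The group means were 0.61 ± 0.05 in oncogenic and 1.59 ± 0.27 in normal cells (SD, n = 2 each), a difference of -0.98. The small oncogenic SD hid a wider spread of the same balance taken within each seed. There the SD was 0.53 for AAUACUG and 0.30 for AACACUG, with the oncogenic replicates ordered in opposite directions. The groups were separate, and the gap between them was larger than the gap between replicates of either group. The same held within the seed AAUACUG, but only just beside the gap between the oncogenic replicates. Within this seed the difference of group means was -0.80 without oncogenic replicate 2. There miR-200b and miR-429 exceeded miR-200c by 0.76 and 0.01 on the log2 scale in oncogenic cells, against 1.57 and 1.54 in normal cells. Within the seed AACACUG, miR-200a exceeded miR-141 by 0.30 and 0.72 in oncogenic cells, against 1.13 and 1.99 in normal cells. The differences of group means were -1.17 and -1.04 for these seeds, so the balance differed by a similar amount in each seed group, although for the second seed the gap between the groups was smaller than that between the normal samples and the difference was -0.61 without normal replicate 2. A summary over chosen members is given here as a description, with no test.

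By seed, the separation was smaller beside the spread between replicates. The mean log2 level of miR-200b, miR-200c and miR-429 exceeded that of miR-200a and miR-141 by 0.62 and 1.61 in oncogenic cells, against 0.34 and 0.59 in normal cells. The groups did not overlap, but oncogenic replicate 1 lay next to normal replicate 2, and the difference of 0.66 came to 0.16 without oncogenic replicate 2 and to 1.15 without oncogenic replicate 1. Within the transcript on chromosome 4, miR-200b and miR-429 exceeded miR-200a by 0.73 and 1.26 in oncogenic cells, against 0.30 and 0.11 in normal cells, and the groups were separate. Without oncogenic replicate 2 that difference, 0.79 over all samples, was 0.52. Within the transcript on chromosome 6, miR-200c exceeded miR-141 by 0.27 and 1.97 in oncogenic cells, against -0.15 and 0.55 in normal cells. These groups overlapped, and the difference of 0.92 was 0.07 without oncogenic replicate 2, 1.76 without oncogenic replicate 1 and 0.56 without normal replicate 1.

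**Figure D4:**
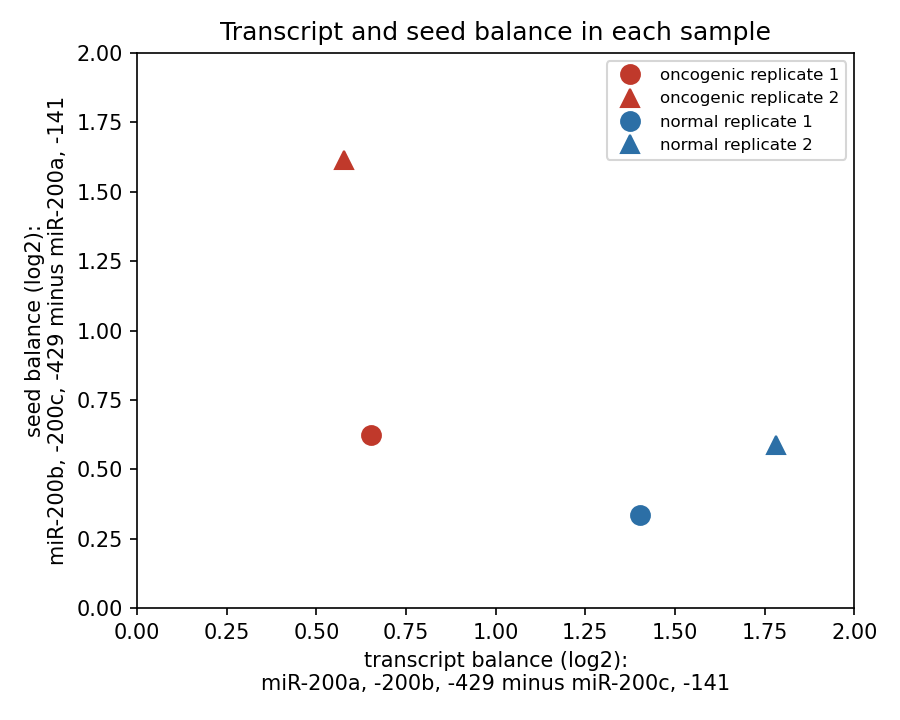
Transcript balance (horizontal axis) and seed balance (vertical axis) of the 4 samples, each a difference of mean log2 levels between groups of members. The oncogenic samples lie to the left, at 0.65 and 0.58 against 1.40 and 1.78, while on the vertical axis oncogenic replicate 1 (0.62) lies next to normal replicate 2 (0.59) and oncogenic replicate 2 (1.61) lies above the rest.

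Of the 10 pairs of members, 7 had ratios that did not overlap between the groups, where 54.2% of the 7626 pairs of tested miRNAs did not. All 4 pairs that share a seed were among the 7, as were 3 of the 6 with different seeds. By transcript, they held 3 of the 4 pairs that share one and 4 of the 6 that do not. The 10 pairs are made of only 5 members, so they are not independent. The largest change was that of miR-200c over miR-200a, the members at the ends of the family's range. This ratio was 0.978 and 2.37 in oncogenic cells, against 0.413 and 0.370 in normal cells, a difference of 1.96 on the log2 scale. Since the pair was picked as the largest of 10, this is a description with no test, and 15.7% of all pairs of tested miRNAs differed by at least as much. Without oncogenic replicate 2 the difference was 1.32. The ratio of miR-200c over miR-200b, whose sequences differ at only 2 positions, was 0.671 and 1.09 in oncogenic cells, against 0.309 and 0.315 in normal cells. The probes of this close pair thus gave unequal changes.

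The ratio of miR-429 over miR-200b had the closest replicates of the 10. It was 1.29 and 1.22 in oncogenic cells, against 0.849 and 0.846 in normal cells, a difference of 0.57 on the log2 scale. In counts, miR-429 took 56.3% (exact binomial 95% interval 54.5 to 58.2) and 54.9% (51.7 to 58.2) of the pair's counts in oncogenic cells. In normal cells it took 45.9% (44.5 to 47.3) and 45.8% (44.4 to 47.2). The oncogenic and normal intervals, which cover counting error only, did not meet. Nor did those of miR-200c over miR-200a, miR-200b or miR-429, or of miR-429 over miR-200a, so this was not particular to the pair. Such intervals were not computed for pairs outside the family. Both miRNAs come from 1 transcript and share their seed, and the 4 positions at which they differ lie outside it. The ratio of miR-429 over miR-141, by contrast, was 2.32 and 4.37 in oncogenic cells and 2.48 and 3.94 in normal cells, with groups that overlapped.

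**Figure D5:**
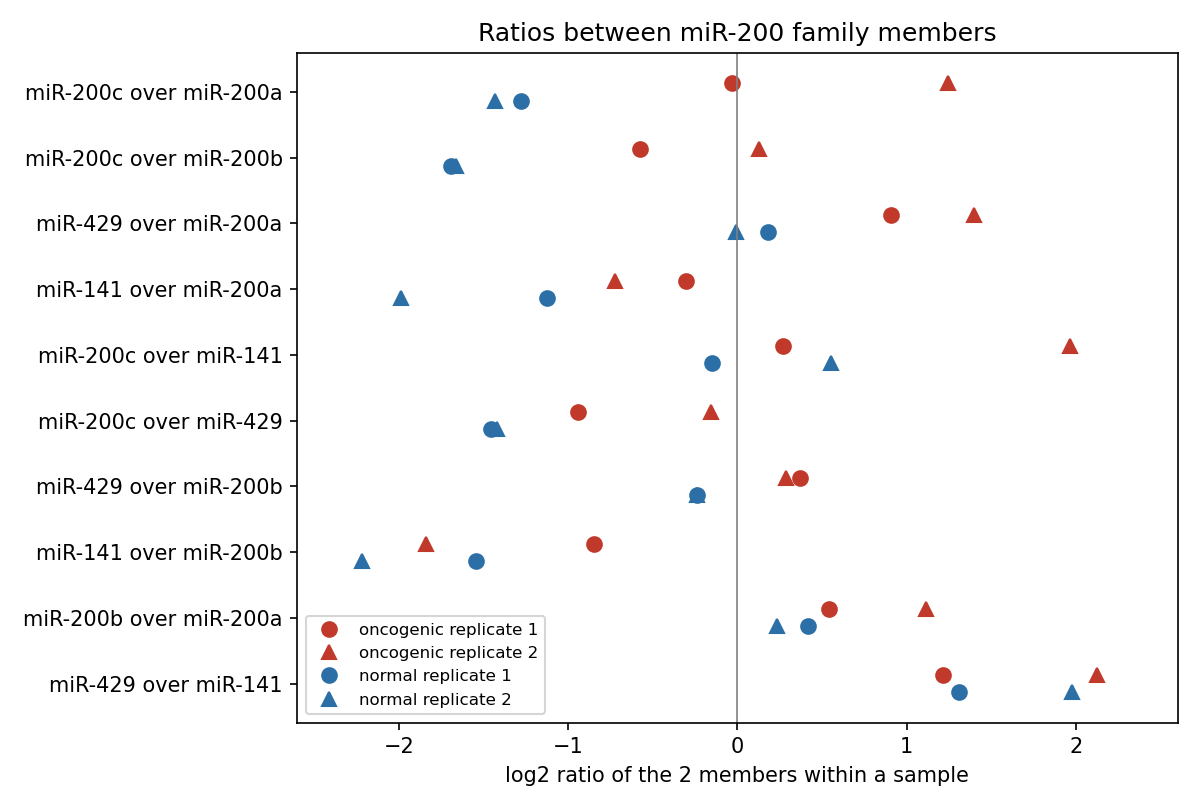
log2 ratio of each pair of members within each sample, with oncogenic samples in red above and normal samples in blue below in each row, ordered by the difference between group means. For miR-429 over miR-200b the replicates nearly coincide within each group, while miR-200c over miR-141, miR-141 over miR-200b and miR-429 over miR-141 overlap between groups.

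Set against miR-205 and miR-203, the abundant keratinocyte miRNAs outside the family, 3 of 5 members were lower in both oncogenic samples and 0 were higher in both. Of the 122 tested miRNAs other than miR-205 and miR-203, the members included, 30.3% were lower and 23% higher. The log2 level of miR-200a minus the mean of miR-205 and miR-203 was -4.43 and -5.34 in oncogenic cells, against -3.15 and -3.42 in normal cells. For miR-200b it was -3.88 and -4.23 in oncogenic cells, against -2.73 and -3.19 in normal cells. For miR-429 it was -3.52 and -3.95 in oncogenic cells, against -2.97 and -3.43 in normal cells, where oncogenic replicate 1 and normal replicate 2 were close together. The groups of miR-200c and miR-141 overlapped on this scale. The difference of miR-429, -0.53, was -0.32 without oncogenic replicate 2 and -0.30 without normal replicate 1. That of miR-141, -0.56, was 0.11 without oncogenic replicate 2 and 0.0068 without normal replicate 1.

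Other miRNAs reported to act in the transition from epithelial to mesenchymal state were taken from lists outside the family. Of 19 that are reported to oppose it, 15 were tested, 0 passed limma's adjusted threshold, and at an unadjusted p under 0.05 2 were lower and 0 higher, beside 21% and 3.23% of all tested miRNAs. Their differences were negative for 12 and positive for 3, where 73 of all 124 were negative and 51 positive, with a median of -0.33, beside -0.19 over all tested miRNAs and -0.82 in the family. The most abundant of them were miR-205 and miR-203, whose levels are given above, and miR-29b, which targets collagen transcripts and stood at 924 and 162 in oncogenic cells, against 1095 and 294 in normal cells (log2 difference -0.55, limma adjusted p = 0.840). Of 11 reported to promote it, 7 were tested, 0 passed, and at an unadjusted p under 0.05 0 were lower and 1 higher, beside the same 21% and 3.23%. Their differences were negative for 2 and positive for 5, beside 73 and 51 of all 124, with a median of 0.30. miR-27a stood at 3635 and 2760 in oncogenic cells, against 3319 and 3010 in normal cells, and its groups overlapped. miR-21, often raised in tumours, stood at 1499 and 653 in oncogenic cells, against 684 and 358 in normal cells, and miR-155 at 208 and 268 against 229 and 159. The groups of both overlapped as well. edgeR with either scaling and DESeq2 also called 0 of both lists.

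For each member the tested miRNAs with the most similar profile were found by the Euclidean distance between log2 levels over the 4 samples, after centring each on its own mean. For all 5 members the nearest was outside the family. With 119 candidates there and 4 other members within, this was likely in advance and says little about the family. The nearest to miR-200a was miR-26b (distance 0.35), at 174 and 107 normalized counts in oncogenic cells, against 543 and 551 in normal cells, followed by miR-101a (0.50). The nearest to miR-200b was miR-148a (0.16), at 108 and 68.7 against 224 and 194, followed by miR-676 (0.27). The nearest to miR-429 was miR-29a (0.21), at 1093 and 724 against 1868 and 1600, followed by miR-10a (0.27). For these members both oncogenic samples of the neighbour were low and replicate 2 was the lower of the 2. The neighbours were picked for a similar profile, so this shared pattern follows from the choice. The nearest to miR-200c was miR-30c (0.13), at 81.2 and 82.8 in oncogenic cells, against 79.1 and 70.6 in normal cells, followed by miR-2146 (0.17). The nearest to miR-141 was miR-30e (0.28), at 97.8 and 24.7 against 119 and 67.2, followed by miR-106b (0.39). Within the family, the shortest distances from each member were 0.57 between miR-200b and miR-429, 0.66 from miR-200a to miR-200b, 0.80 from miR-141 to miR-429 and 1.05 from miR-200c to miR-429.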

How the data were processed

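Total RNA of 2 oncogenic and 2 normal samples was profiled with the nCounter miRNA assay following the manufacturer, per the labels' protocols. The deposited signal (618 rows, 1 column per sample) was normalized by the authors by a method not given in the sources used here. In every sample all 603 miRNA, mRNA and viral probes proved to be whole counts times 1 factor (100% whole within 0.1 count), while control probes are unscaled. limma (version 3.58.1, in R 4.3.3) was run two-sided with lmFit and eBayes with trend on log2(value + 1) of miRNAs that reached 30 in 2 or more samples. P-values were adjusted by Benjamini-Hochberg and the threshold was 0.05. Alternatives were edgeR (version 4.0.16) and DESeq2 (version 1.42.0) on recovered counts, 7 scalings, pseudocounts of 10 and 30, other filters, background subtraction, a replicate block and leaving out each sample. Named miRNAs are the members, miR-205 and miR-203, the 2 nearest profiles of each member, cell type markers, and from each transition list those past the threshold and the 3 most abundant tested. The members and lists were chosen with earlier results of these data known.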

Additional observations from a re-analysis of the deposited data

How the results depend on the processing

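The differences of miR-200a, miR-200b, miR-429 and miR-141 stayed negative under all 21 alternatives, at -2.43 to -1.29, -1.77 to -0.82, -1.20 to -0.15 and -1.60 to -0.038. miR-200c was positive under 18 of 21, up to 0.63 with centring, and turned to -0.31 with mRNA probes, -0.041 with mRNA probes without Gapdh and -0.15 with positive control probes. DESeq2 put miR-200a past the threshold (-1.48). The replicate block left the differences at -1.86 for miR-200a and -1.36 for miR-200b and put both past the threshold (limma adjusted p = 1.02e-05 and 0.00169). The labels do not say that a number marks a shared animal or batch. Same-numbered samples deviated together (r = 0.663 over miRNAs), and the opposite matching gave r = -0.663. With 2 samples per group these values must mirror each other, so 1 matching had to be positive. The sign cannot show that the numbers pair the samples. Leaving out 1 sample gave -2.43 to -1.29 for miR-200a, -1.64 to -1.07 for miR-200b, -1.12 to -0.47 for miR-429 and -1.60 to -0.038 for miR-141. The number of miRNAs called, 5 lower and 0 higher with the deposited scaling, was 8 with centring or the 100 most abundant miRNAs (5 lower and 3 higher), 3 with quantile normalization or positive control probes, 11 with DESeq2 (8 lower and 3 higher), 30 with the replicate block and 1 to 26 without 1 sample. Quantile normalization, which alone among the scalings can alter ratios within a sample, moved the transcript balance to -0.78 and miR-429 relative to miR-205 and miR-203 to 0.061. The transcript balance kept its sign under all 9 alternatives (-1.17 to -0.78), as did the seed balance (0.16 to 1.15). The cause of these shifts was not tested. Oncogenic replicate 2 had the fewest counts, which widens the counting intervals of its members.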
